A study of Mus musculus with 12 samples.

Results

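The 40 genes described here are cell cycle genes of 3T3-L1 cells, a mouse preadipocyte line that stores fat after hormonal induction. They were chosen by name, with earlier results of these data known. Of them, 36 act in S phase, mitotic entry, the spindle, the kinetochore or cytokinesis, and 4 (Ccnd1, Ccnd2, Ccnd3 and Cdk4) act earlier, in G1. Of the 40, 39 were found among 11022 genes in the table of unique molecular identifier (UMI) counts, where each counted molecule is 1 original transcript tag. Cenpf was not among them, and only its promoter was counted below. Another 3, Cdk1, Bub1 and Smc2, had too few counts to be tested, which left 36 members among 9378 genes tested, 32 of them outside G1. RNA of 12 libraries was read by MARS-seq, a method that tags the 3′ end of each transcript.

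The libraries formed 4 groups of 3, and all of the sequenced cells were 3T3-L1 labelled as WT in genotype. Undifferentiated cells were preadipocytes kept in calf serum and given no treatment. Regular cells went through adipogenic differentiation with isobutylmethylxanthine, insulin, dexamethasone and rosiglitazone, then with insulin alone, then in maintenance medium, all in fetal bovine serum. WT CM and KO CM cells received the same steps, with each medium mixed in equal parts with filtered conditioned medium (CM) from WEP cells, a breast cancer line, either p53 wild-type or p53 knockout. The p53 knockout was therefore in the cancer cells and not in the cells sequenced, and the kind of serum changed together with differentiation. The listed inducer concentrations were the same with and without CM, so whether mixing with CM diluted the inducers is not given. Induction began in confluent cultures, while the labels give neither the density of the undifferentiated cells at harvest nor the day on which differentiated cells were taken. The labels also do not say whether replicates were separate cultures. P-values therefore set group differences against a spread among libraries that could be technical only.

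In dividing cells, D-type cyclins with Cdk4 carry cells out of G1, Cdk2 with cyclin A acts in S phase, and cyclin B with Cdk1 drives mitosis. Aurora and Polo-like kinases, kinesin motors and kinetochore proteins then build the spindle, a checkpoint holds anaphase until all chromosomes are attached, and the anaphase-promoting complex (APC/C) ends mitosis by marking cyclin B and other proteins for destruction. Most mitotic genes are transcribed late in the cycle under the DREAM and MuvB complexes, which bind the CHR element of their promoters, usually beside CCAAT boxes bound by NF-Y. Confluent 3T3-L1 preadipocytes are known to re-enter the cycle for a short time after induction and to leave it again as they become adipocytes.

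Promoters of 5 members are shown because these genes fell most on differentiation among those whose window held one of these motifs. Each line runs 5′ to 3′ along the gene's strand from 250 bases before to 50 bases after the annotated start (RefSeq, GRCm38.p6), and for Prc1 it is the first of 2 annotated windows. Capitals mark CCAAT and the CHR core TTTGAA, each also where it lies on the other strand (ATTGG and TTCAAA).
Kif23 (chr9:61946750-61947049, minus strand): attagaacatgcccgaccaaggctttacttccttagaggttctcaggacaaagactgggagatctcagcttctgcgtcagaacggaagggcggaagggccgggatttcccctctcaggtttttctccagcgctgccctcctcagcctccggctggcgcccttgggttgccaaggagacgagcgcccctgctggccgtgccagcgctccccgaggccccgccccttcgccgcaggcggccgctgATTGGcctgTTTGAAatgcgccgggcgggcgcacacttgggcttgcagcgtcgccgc
Bub1b (chr2:118597961-118598260, plus strand): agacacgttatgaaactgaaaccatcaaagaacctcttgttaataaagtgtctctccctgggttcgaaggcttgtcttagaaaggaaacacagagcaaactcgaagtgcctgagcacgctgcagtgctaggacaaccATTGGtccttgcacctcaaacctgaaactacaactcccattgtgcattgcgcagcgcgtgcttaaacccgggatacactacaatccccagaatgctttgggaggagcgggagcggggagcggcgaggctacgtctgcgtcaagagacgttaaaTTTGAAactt
Aurka (chr2:172370521-172370820, minus strand): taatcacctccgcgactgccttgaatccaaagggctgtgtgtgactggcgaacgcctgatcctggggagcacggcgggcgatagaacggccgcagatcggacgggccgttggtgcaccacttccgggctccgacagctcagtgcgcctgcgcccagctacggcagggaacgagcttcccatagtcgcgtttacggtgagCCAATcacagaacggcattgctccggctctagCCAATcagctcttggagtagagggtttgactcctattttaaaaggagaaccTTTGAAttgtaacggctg
Prc1 (chr7:80294201-80294500, plus strand): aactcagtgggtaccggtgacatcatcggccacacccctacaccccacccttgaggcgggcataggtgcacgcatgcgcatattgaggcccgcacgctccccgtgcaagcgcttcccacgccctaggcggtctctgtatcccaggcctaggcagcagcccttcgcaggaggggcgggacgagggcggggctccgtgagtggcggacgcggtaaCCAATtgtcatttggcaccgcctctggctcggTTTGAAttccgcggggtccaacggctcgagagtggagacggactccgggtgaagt
Ccnb2 (chr9:70421505-70421804, minus strand): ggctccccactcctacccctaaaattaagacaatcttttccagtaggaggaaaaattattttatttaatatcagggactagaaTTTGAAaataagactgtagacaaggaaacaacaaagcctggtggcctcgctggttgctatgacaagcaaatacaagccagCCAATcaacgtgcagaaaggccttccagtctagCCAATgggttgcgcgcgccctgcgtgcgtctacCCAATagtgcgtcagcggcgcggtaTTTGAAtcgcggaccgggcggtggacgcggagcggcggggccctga
In Kif23 both motifs lay side by side at the start, with the CCAAT box beginning at -7 on the opposite strand and TTTGAA at +3. Aurka carried CCAAT at -51 and -19 and TTTGAA at +33, and Ccnb2 carried CCAAT at -87, -54 and -21 and TTTGAA at -167 and +5. The windows covered 33 of the 40 members, and no window was given for Ccna2, Aurkb, Kif20a, Tpx2, Smc4, Ccnd1 and Ccnd2. Of 31 members outside G1 with a window, 27 (87.1%) held CCAAT on either strand, against 41.1% of all 27025 genes with a window and 43.0% of the 7533 other tested genes. TTTGAA was found in 24 (77.4%), against 20.2% of all genes and 13.2% of the other tested genes. Both motifs together were found in 23 (74.2%), against 7.97% and 5.3%. The CHR variant TTTAAA, a palindrome that reads the same on both strands, was found in 8 (25.8%, against 14.9% and 10.6%), and the E2F-type sequence GGCGGGAA in 0, against 2.52% and 4.85%. A match is a description of these letters and not a site or a cause of any change below.

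The libraries held 987496 to 2589045 UMIs, with the KO CM libraries the shallowest at 987496 to 1376688. Replicates of a group correlated at r of at least 0.963 across tested genes. Levels below are counts scaled to a common library size (CPM) after TMM, a scaling that leaves out the most changed genes. Since each transcript gives 1 tag at its 3′ end, levels are not divided by transcript length. Adipocyte markers checked the labels: the 10 genes, among them Adipoq and Fabp4, summed to 142 to 176 CPM in undifferentiated libraries, 32000 to 34100 in regular ones, 20000 to 20300 under WT CM and 9920 to 11400 under KO CM. The 10 preadipocyte and fibroblast markers summed to 20700 to 21700, 9580 to 10000, 20300 to 20700 and 26500 to 28900 CPM. The CM groups thus held fewer adipocyte transcripts and more fibroblast transcripts than the regular group, and the part of this in the results below was not tested. Of 10 epithelial markers, 3 were in the table and summed to 3.6 to 6.24, 45.7 to 56.1, 14.5 to 23.9 and 5.57 to 14.9 CPM, so that they were highest in regular cells. Epcam and Cdh1, defining markers of epithelial cells, were not among these 3. Of 10 macrophage markers, 4 were in the table, with sums of 21.3 to 27.2, 20.1 to 28.6, 50.7 to 63.4 and 84.6 to 108 CPM, mostly Cd14.

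The mitotic genes formed a falling series across the 4 groups. Summed over the 35 members outside G1 in the table, undifferentiated libraries held 1820, 1900 and 1690 CPM, regular libraries 775, 738 and 737, WT CM libraries 476, 540 and 553, and KO CM libraries 412, 434 and 401. No group overlapped another, and the mean of undifferentiated cells was 4.33 times that of KO CM cells. The KO CM sums rested on 416, 390 and 511 UMIs, against 2685 to 3286 in undifferentiated libraries, so single members were measured least precisely there. Of the 32 tested members outside G1, 25 had mean levels that fell in the order undifferentiated, regular, WT CM, KO CM, as 6.84% of all tested genes did. For 29 of the 32, all 3 undifferentiated libraries lay above the 9 others, as for 13.8% of all tested genes. For 11 of the 32, all 3 KO CM libraries lay below the 9 others, as for 2.45% of all tested genes. Since members were chosen with earlier results known, these counts beside the shares are a description and not a test. Of the 4 G1 members, 0 had that order of means and 0 had all KO CM libraries lowest, while Ccnd1 and Cdk4 had all undifferentiated libraries above the others. In bulk RNA, fewer cycling cells and less of these transcripts per cell cannot be told apart.

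**Figure D1:**
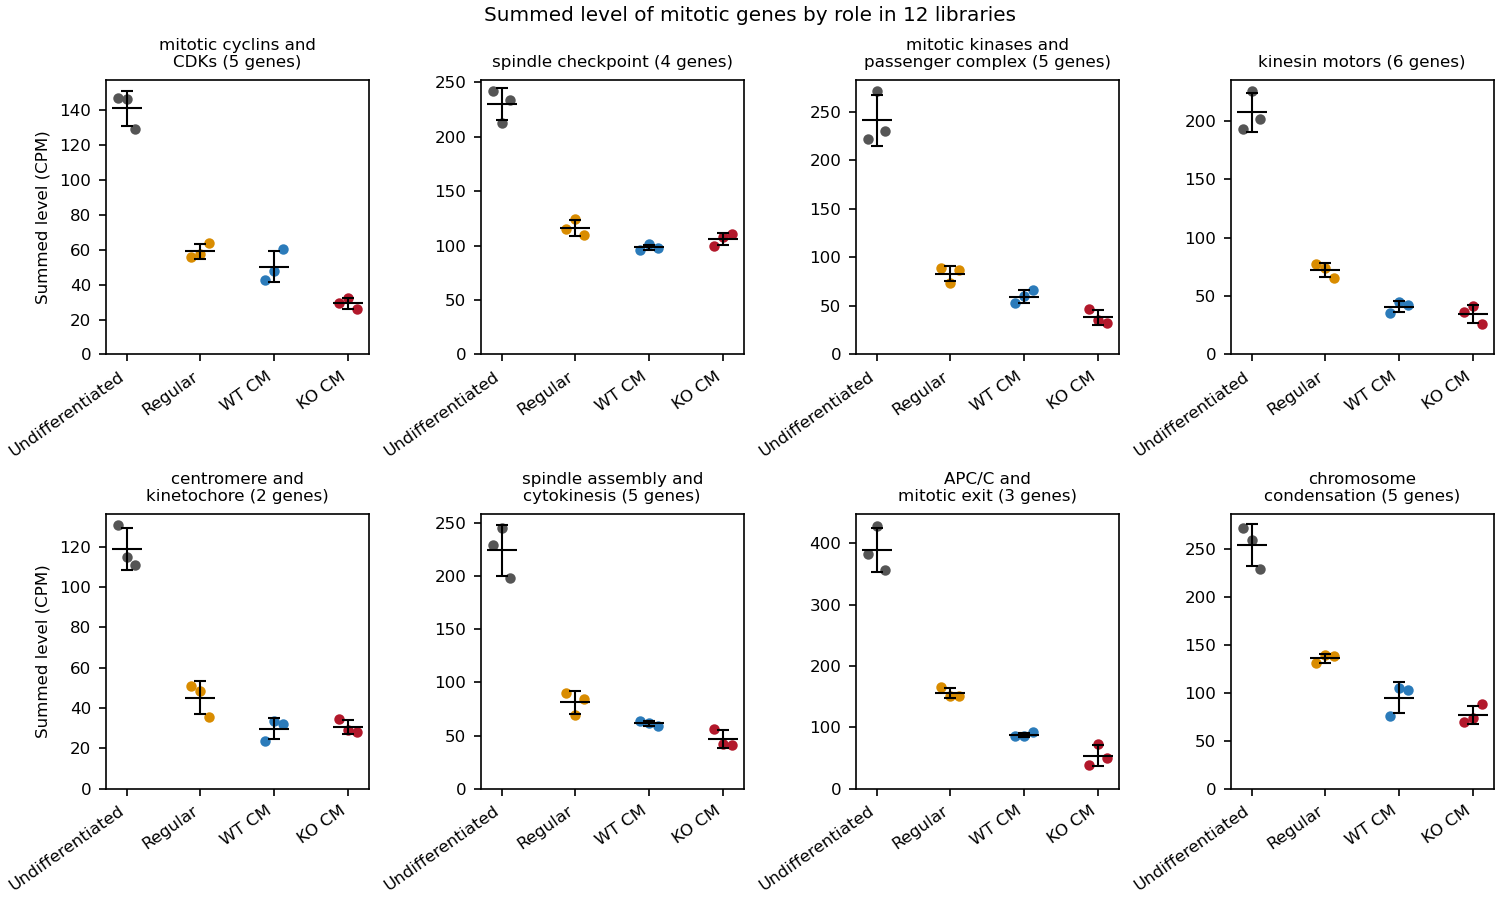
Summed level (CPM, linear axis from 0) of mitotic genes by role in each of the 12 libraries; points are libraries and lines are the mean ± SD of 3. Undifferentiated libraries lie above the 9 others in all 8 roles, and the spindle checkpoint and kinetochore sums do not fall further from WT CM to KO CM.

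Regular differentiation, the study's control, was compared with undifferentiated cells first. Of the 36 tested members, 33 fell and 2 rose (edgeR's quasi-likelihood test, Benjamini-Hochberg adjusted p under 0.05), where 28.0% of all tested genes fell and 29.6% rose. Outside G1, 31 of 32 fell, and Cdk2 was the exception at 0.06. Their median log2 fold change was -1.43, beside -0.01 for all tested genes. The folds ran from 1.36 for the condensin gene Smc4 to 5.69 for Kif23. The calls of Kif22, Spc25, Smc4 and Ncapd2 did not hold in every setting: with DESeq2 the adjusted p was 0.0841 for Kif22, 0.0658 for Spc25 and 0.0881 for Smc4. With edgeR, that of Kif22 was 0.0727 without regular replicate 1 and 0.0733 without regular replicate 3, and that of Smc4 was 0.0839 without undifferentiated replicate 3 and 0.0836 without regular replicate 1. Spc25 reached 0.336 without undifferentiated replicate 1 and 0.208 after thinning all libraries to the smallest total, and Ncapd2 0.0502 without undifferentiated replicate 2.

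Conditioned medium was then compared with regular differentiation. With WT CM, 11 of 36 members fell further and 1 rose, against 15.4% and 17.2% of all tested genes, and with KO CM 20 fell and 3 rose, against 21.0% and 22.2%. All 11 that fell with WT CM were outside G1, where the median was -0.47 (0.01 for all tested genes), and with KO CM 19 of 32 fell with a median of -1.11 (-0.0 for all). Both comparisons share the regular libraries. The WT CM falls of Kif20a, Cdc20, Ube2c, Cdca3 and Ncapd2 were called in every setting tried. Those of Birc5, Kif2c, Spc25, Nusap1, Racgap1 and Top2a were not, with adjusted p-values of up to 0.134, 0.192, 0.213, 0.185, 0.28 and 0.14, and without WT CM replicate 2 the count of falls was 7.

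Against undifferentiated cells, both CM groups lay far below. With WT CM 32 of 36 members were lower and 2 higher, where 20.7% of all tested genes were lower and 27.9% higher, and with KO CM 33 were lower and 1 higher, where the shares were 17.7% and 26.0%. The medians outside G1 were -1.90 and -2.69, beside 0.06 and 0.08 for all tested genes. These comparisons share the undifferentiated libraries with that of regular cells.

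**Figure D2:**
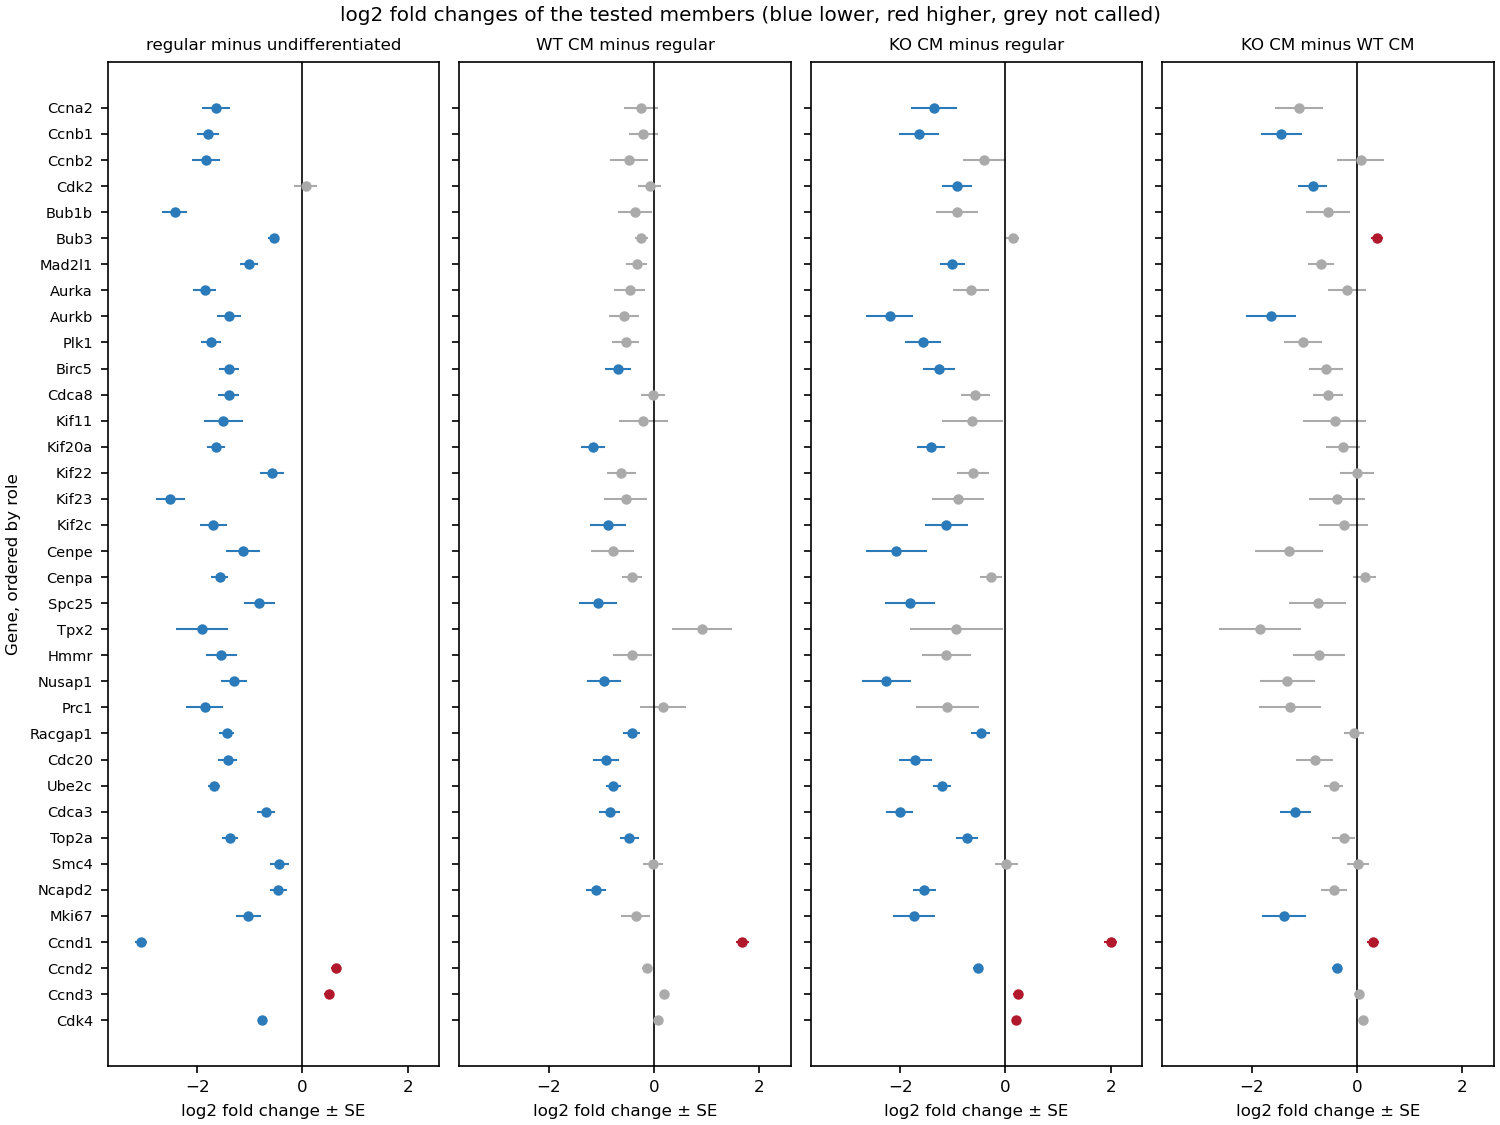
log2 fold change ± SE of the 36 tested members (rows, by role) in 4 comparisons, from edgeR's quasi-likelihood fit over 12 libraries; blue was called lower, red higher and grey not called. Falls fill the first panel, and the D-type cyclins and Cdk4 at the bottom stand on both sides of 0.

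Among mitotic cyclins and their kinases, the cyclin B1 gene Ccnb1, whose product activates Cdk1 at the onset of mitosis, showed the steepest series. Its libraries read 53.3, 51 and 41.1 CPM in undifferentiated cells, 14.6, 12.9 and 14.9 in regular cells, 7.5, 16.1 and 12.3 with WT CM and 2.97, 6.68 and 3.92 with KO CM. The regular libraries lay inside the WT CM range, and all KO CM libraries lay below both. The log2 change was -1.79 ± 0.21 (SE) on differentiation, -1.64 ± 0.38 from regular to KO CM and -1.44 ± 0.39 from WT CM to KO CM (adjusted p = 7.29e-10, 0.000434 and 0.00943 by edgeR's quasi-likelihood test). Ccna2, the cyclin of S phase and G2, fell on differentiation (-1.64) and from regular to KO CM (-1.35), a call that was lost without KO CM replicate 1 and after thinning (adjusted p of at most 0.102 by edgeR). Ccnb2 fell on differentiation (-1.83) and stood at 7.93, 12.2 and 3.14 CPM with KO CM beside 4.77, 3.86 and 10.6 with WT CM, so that these groups overlapped. Cdk2, the partner of cyclins E and A, behaved differently from the cyclins. It stood at 21.6, 31.9 and 20 CPM in undifferentiated, 26.5, 20.7 and 29.8 in regular and 20.4, 18.7 and 30 in WT CM libraries, and at 16.8, 8.91 and 13.3 with KO CM. The first 3 groups overlapped and the KO CM libraries lay below all of them, with a change of -0.92 ± 0.28 from regular (adjusted p = 0.00633 by edgeR, and 0.0501 after thinning). Cdk1, the mitotic kinase itself, was too sparse to test, with 16, 6, 3 and 1 UMIs over the 3 libraries of the 4 groups.

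The spindle checkpoint held a deep fall, that of Bub1b, and also the member outside G1 that was called higher between the media, Bub3. Bub1b, which codes for the checkpoint protein BubR1, stood at 59, 44.6 and 50.4 CPM before differentiation, at 11.9, 10.9 and 5.96 in regular cells, at 8.86, 7.73 and 6.17 with WT CM and at 5.94, 2.23 and 6.28 with KO CM. Its change on differentiation was -2.43 ± 0.23 (adjusted p = 1.05e-12 by edgeR), and the differentiated groups lay close together, with -0.36 and -0.92 from regular to WT CM and KO CM, neither called. Mad2l1, which codes for the checkpoint inhibitor Mad2, fell on differentiation (-1.01) and again from regular to KO CM (-1.01). Bub3, which carries BubR1 and Bub1 to the kinetochore, read 117, 119 and 115 CPM in undifferentiated cells, 75.9, 83.8 and 76.9 in regular cells, 64.1, 67.6 and 70.1 with WT CM and 80.3, 93.5 and 89.4 with KO CM. The WT CM libraries were the lowest and did not overlap those of KO CM. After a fall of 0.55 on the log2 scale on differentiation it was higher with KO CM than with WT CM in 3 of 3 libraries (0.38 ± 0.12, adjusted p = 0.0357 by edgeR). This call was lost in 7 of 19 alternative settings. Outside G1, 1 of 32 tested members (3.12%) was called higher between the media, where 5.86% of all tested genes were. Bub3 was that member. Bub1, the partner kinase of Bub3, was not tested, with 37 UMIs over undifferentiated libraries and 5, 9 and 1 over the other groups.

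All 5 genes of the mitotic kinases and the chromosomal passenger complex fell on differentiation, by 1.39 to 1.86 on the log2 scale. Aurkb, the kinase of the passenger complex that corrects faulty attachments, had 28.9, 37.5 and 27.8 CPM in undifferentiated libraries, 13.7, 11.7 and 10.7 in regular, 8.18, 9.66 and 6.61 in WT CM and 1.98, 3.34 and 2.35 in KO CM libraries. No 2 of these groups overlapped, although the KO CM values rest on 8 UMIs in all. The difference between regular and WT CM was not called (-0.57, adjusted p = 0.144 by edgeR). From regular to KO CM the change was -2.20 ± 0.44 (adjusted p = 5.17e-05 by edgeR) and from undifferentiated cells to KO CM it was -3.59, the largest of all members in that comparison. Plk1, the Polo-like kinase of mitotic entry and exit, fell from 54 ± 3.03 CPM (SD, n = 3) to 16.4 ± 3.58 in regular cells and was at 5.34 ± 0.335 with KO CM, a fall of 1.57 from regular. Birc5, which codes for the passenger protein survivin, fell with WT CM (-0.68) and with KO CM (-1.26). Aurka, the centrosomal Aurora kinase, and the borealin gene Cdca8 were not called between the differentiated groups (-0.46 and -0.02 with WT CM, -0.66 and -0.57 with KO CM).

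Of the 6 kinesin motor genes, all fell on differentiation. Kif23, the motor subunit of centralspindlin at the cleavage site, stood at 32.9, 38.3 and 41.6 CPM before and at 7.31, 7.02 and 5.37 after regular differentiation, at 2.73, 2.58 and 7.05 with WT CM and at 5.94, 3.34 and 1.57 with KO CM. The fall of 2.51 ± 0.27 on differentiation had an adjusted p of 6.33e-11 by edgeR, and the 3 differentiated groups overlapped. Kif20a, which brings the passenger complex to the midzone, was the member outside G1 that fell most with WT CM. It read 73.2, 84.3 and 78.6 CPM in undifferentiated cells, 28.3, 22.2 and 26.8 in regular cells, 9.54, 9.01 and 14.1 with WT CM and 5.94, 11.1 and 11 with KO CM. Regular libraries stood clear of both CM groups, which overlapped each other, with -1.15 ± 0.23 and -1.41 ± 0.27 from regular (adjusted p = 7.61e-05 and 3.36e-05 by edgeR). Kif2c, which takes apart wrongly attached microtubules, fell from regular cells with WT CM (-0.87) and KO CM (-1.12), the latter not called without regular replicate 1 (adjusted p = 0.0899 by edgeR) or KO CM replicate 3 (0.158), after thinning (0.0965) or with DESeq2 (0.053). Cenpe, the kinetochore motor that carries chromosomes to the plate, had 18.7, 24.8 and 11.8 CPM in undifferentiated, 10.1, 9.74 and 4.77 in regular, 4.77, 6.44 and 3.53 in WT CM and 1.98, 3.34 and 0.785 in KO CM libraries. Regular and WT CM libraries overlapped, undifferentiated ones lay above them and KO CM ones below. From regular to KO CM the change was -2.07 ± 0.58 (adjusted p = 0.00291 by edgeR), on 6 UMIs over the KO CM libraries. Kif11, the motor that separates the spindle poles, and Kif22, which pushes chromosome arms outward, were not called between differentiated groups.

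At the centromere, Cenpa, the histone H3 variant that marks it, fell on differentiation from 97.2 ± 4.38 to 33.1 ± 8 CPM (SD, n = 3). It was 24.2 ± 6 with WT CM and 27.3 ± 3.23 with KO CM, without a call. Spc25, a subunit of the NDC80 complex that grips microtubules, was lower than in regular cells with both media (-1.06 and -1.81). Its undifferentiated libraries were uneven, at 34.6, 12.8 and 17 CPM.

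The 5 spindle assembly and cytokinesis genes all fell on differentiation, most of all Tpx2 (-1.91 ± 0.49, on 10 UMIs over the regular libraries), with Prc1 close to it (-1.86). Racgap1, the partner of Kif23 in centralspindlin, was the second most abundant member outside G1 in undifferentiated cells, and Bub3 stood above it in the 3 other groups. It stood at 132, 150 and 127 CPM, then 56.7, 41.3 and 56.1 in regular, 44.3, 38.6 and 31.3 in WT CM and 38.6, 39 and 31.4 in KO CM libraries. The CM groups were alike in range, and WT CM libraries overlapped regular ones. Levels with WT CM and KO CM were below regular cells by 0.42 ± 0.16 and 0.47 ± 0.18 on the log2 scale (adjusted p = 0.0414 and 0.0294 by edgeR). The first of these calls was lost in 7 of 19 alternative settings. The second of these was not called without regular replicate 1 (0.0835), regular replicate 3 (0.123) or KO CM replicate 3 (0.175), after thinning (0.0838) or with DESeq2 (0.0556). Nusap1, which stabilises microtubules around chromosomes, fell on differentiation and was lower again with both media. Its libraries read 32.9, 33.3 and 26.2 CPM in undifferentiated cells, 14.6, 9.35 and 14.9 in regular cells, 4.77, 4.51 and 8.81 with WT CM and 1.98, 2.23 and 3.14 with KO CM. No 2 groups overlapped, but the difference between WT CM and KO CM was not called (-1.32, adjusted p = 0.0937 by edgeR). The change from regular to KO CM of -2.26 ± 0.46 was the largest among all members (adjusted p = 6.07e-05 by edgeR), on 8 UMIs over the KO CM libraries. Prc1, the bundler of midzone microtubules, was uneven with KO CM at 8.92, 0 and 0.785 CPM, where 3 UMIs in 1 library correspond to 2.35 to 3.34 CPM. Tpx2, the activator of Aurka, and the hyaluronan receptor gene Hmmr, whose product also sits on spindle poles, were not called between differentiated groups.

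The 3 genes of APC/C activity and mitotic exit were the only role whose tested members all fell in each of the first 3 comparisons. Ube2c, the ubiquitin-conjugating enzyme that works with the APC/C, was the most abundant member outside G1 in undifferentiated cells, and Bub3 was higher in the 3 other groups. It read 227, 240 and 213 CPM in undifferentiated cells, 72.2, 75.2 and 63.2 in regular cells, 34.1, 39.3 and 48.5 with WT CM and 23.8, 35.6 and 32.2 with KO CM. The CM groups overlapped each other and lay below every regular library, with changes of -1.68 ± 0.11 on differentiation, -0.77 ± 0.14 with WT CM and -1.21 ± 0.17 with KO CM (adjusted p = 1.39e-17, 1.56e-05 and 3.97e-08 by edgeR). Cdc20, the activator that lets the APC/C act at anaphase, fell by 1.42, 0.91 and 1.71 in the same comparisons. Cdca3, known from frog egg extracts to promote destruction of the mitotic inhibitor Wee1, stood at 100, 117 and 91.5 CPM before differentiation, at 69.5, 57.3 and 64.4 in regular cells, at 40.9, 33.5 and 31.7 with WT CM and at 8.92, 31.2 and 9.41 with KO CM. Its fall on differentiation was modest (-0.70) and its fall from regular to KO CM large (-2.01 ± 0.26, adjusted p = 2.71e-07 by edgeR), with KO CM replicate 2 close to the WT CM libraries.

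Among genes of chromosome condensation, Ncapd2, a subunit of condensin I, showed its main drop not on differentiation (-0.46) but from regular cells to conditioned medium. Its levels were 65.8, 75.8 and 65.8 CPM in undifferentiated, 53.9, 47.2 and 50.1 in regular, 17.7, 28.3 and 23.4 in WT CM and 22.8, 20 and 10.2 in KO CM libraries. Both CM groups lay below every regular library and overlapped each other (-1.10 ± 0.19 and -1.54 ± 0.22, adjusted p = 5.26e-06 and 1.4e-07 by edgeR). Mki67, the proliferation marker that coats mitotic chromosomes, was counted at 32.9, 27.6 and 29.3 CPM before differentiation, at 10.1, 18.7 and 12.5 in regular cells, at 6.82, 9.66 and 16.3 with WT CM and at 2.97, 4.45 and 5.49 with KO CM. Regular and WT CM libraries overlapped, and every KO CM library lay below them, on 14 UMIs. Top2a, the topoisomerase that untangles sister chromatids, fell on differentiation (-1.37) and with both media (-0.47 and -0.73). Smc4, a core of both condensins, was level in the 3 differentiated groups, at 27.9 ± 5.18, 28.7 ± 3.66 and 28.6 ± 5.99 (SD, n = 3). Its partner Smc2 was too sparse to test.

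**Figure D3:**
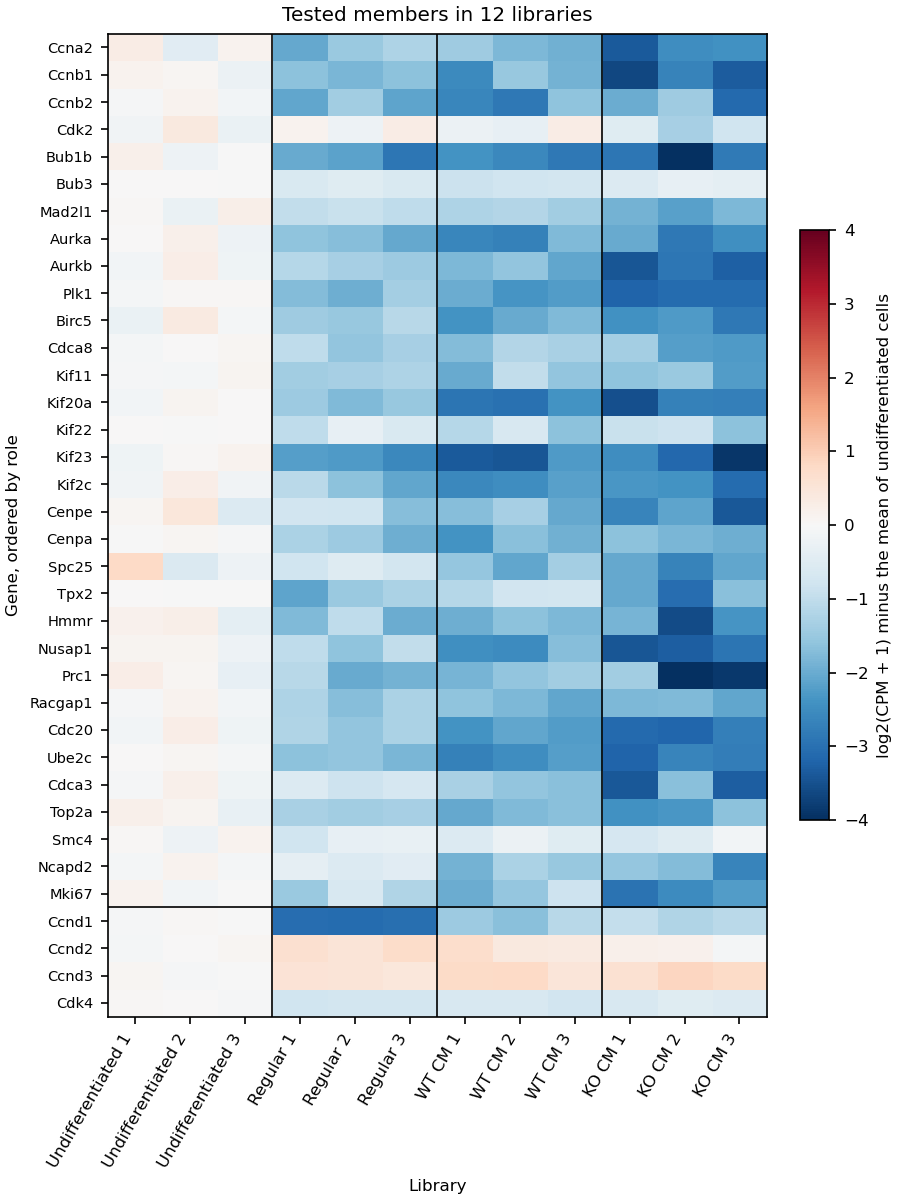
Level of the 36 tested members (rows, by role) in each of the 12 libraries (columns), as log2(CPM + 1) minus the mean of the 3 undifferentiated libraries. Blue deepens from regular to KO CM for most rows above the horizontal line, while the 4 G1 genes below it show another pattern.

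The direct comparison of the media, KO CM against WT CM, asked whether p53 loss in the cancer cells changed the mitotic genes of the recipient cells. Of 36 members, 6 were lower and 2 higher with KO CM, against 6.62% and 5.86% of all tested genes. Lower were Aurkb (-1.63 ± 0.48, 3.10-fold), Ccnb1 (-1.44), Mki67 (-1.38 ± 0.42), Cdca3 (-1.17 ± 0.29), Cdk2 (-0.84 ± 0.28) and Ccnd2 (-0.38 ± 0.10), with adjusted p-values from 0.00445 to 0.0397 by edgeR. Higher were Bub3 (0.38) and Ccnd1 (0.31). Outside G1, 27 of 32 log2 changes were below 0, with a median of -0.57 beside 0.01 for all tested genes. Counted only among members averaging at least 10 UMIs in the deeper group, a limit chosen after seeing the data, the 6 lower calls stood among 32 members. A member could pass this limit through WT CM alone, as Aurkb did with 42 UMIs there and 8 with KO CM. The count therefore cannot show whether low KO CM counts mattered.

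These calls were the least steady of the study, and 0 of the 8 held in every setting. Without KO CM replicate 3 only Mki67 was still called, and the adjusted p-values of the other 7 lay between 0.0696 for Ccnb1 and 0.137 for Bub3. Without WT CM replicate 2, Aurkb reached 0.056, Ccnb1 0.0591, Bub3 0.0738 and Ccnd1 0.3. Leaving out KO CM replicate 1 gave 0.0645 for Aurkb, 0.0599 for Ccnb1, 0.101 for Mki67 and 0.191 for Ccnd1. Without KO CM replicate 2 the values were 0.0572 for Mki67, 0.188 for Cdk2 and 0.13 for Bub3, without WT CM replicate 3 they were 0.265 for Mki67 and 0.294 for Cdk2, and without WT CM replicate 1 they were 0.0852 for Ccnd2, 0.101 for Bub3 and 0.132 for Ccnd1. No called member changed sign in any of the alternatives tried. In the authors' deposited table, 2 of 35 members outside G1 were lower in this comparison, where 3.55% of all its genes were. The same deposited table of the authors had 30 lower on differentiation (22.1% of all genes), 6 with WT CM (10.3%) and 17 with KO CM (15.6%) against regular cells. Adipocyte markers moved in the same comparison, 9 of 10 lower with KO CM with a median of -1.09, and their part in these differences was not tested.

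The D-type cyclins and Cdk4 did not move as a unit with the mitotic genes. Ccnd1, which codes for cyclin D1 and responds to growth factors (chr7:144929931-144939925, minus strand), had the largest change of all members on differentiation. It read 410, 430 and 418 CPM in undifferentiated cells, 49.4, 49.1 and 50.7 in regular cells, 152, 132 and 192 with WT CM and 216, 181 and 198 with KO CM. Regular libraries were lowest and nearly identical, and both CM groups stood between them and undifferentiated cells. The fall was 8.42-fold (-3.07 ± 0.11, adjusted p = 9.28e-27 by edgeR), and the levels with WT CM and KO CM were higher than in regular cells by 1.68 ± 0.12 and 2.00 ± 0.12 on the log2 scale (adjusted p = 7.41e-16 and 1.88e-18). The KO CM range overlapped that of WT CM, and the call between them (0.0429) was lost in 13 of 19 alternative settings.

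Ccnd2, the cyclin D2 gene (chr6:127125162-127152193, minus strand), rose where Ccnd1 fell. It stood at 277, 299 and 310 CPM in undifferentiated cells, 458, 424 and 489 in regular cells, 478, 390 and 376 with WT CM and 340, 334 and 282 with KO CM. Regular and WT CM libraries overlapped and lay above both other groups, with 0.63 ± 0.09 on differentiation and -0.52 ± 0.10 from regular to KO CM (adjusted p = 1.75e-07 and 1.34e-05 by edgeR). Between KO CM and undifferentiated cells Ccnd2 was not called (0.10).

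Ccnd3, the cyclin D3 gene (chr17:47505051-47599691, plus strand), is known to rise during adipogenesis and had 297, 271 and 281 CPM before differentiation and 412, 402 and 388 after it. With WT CM it had 485, 494 and 400 CPM and with KO CM 430, 510 and 479. The 3 differentiated groups lay above undifferentiated cells, which they exceeded by 0.50, 0.70 and 0.74 on the log2 scale (adjusted p = 6.31e-06, 9.14e-09 and 4.33e-09 by edgeR). Cdk4, their kinase partner (chr10:127063534-127067920, plus strand), had 750, 733 and 713 CPM in undifferentiated cells, 418, 438 and 435 in regular cells, 472, 467 and 431 with WT CM and 469, 521 and 501 with KO CM. It fell by 0.77 ± 0.08 on differentiation (adjusted p = 4.09e-11 by edgeR), and every differentiated library lay below the undifferentiated ones. The small rises of Ccnd3 (0.24) and Cdk4 (0.21) from regular to KO CM were called with TMM scaling (0.0277 and 0.0397) and not with the RLE scaling of DESeq2 (0.054 and 0.0803) or with total counts (0.259 and 0.379), and not with DESeq2 itself (0.109 and 0.115). Without regular replicate 2, regular replicate 3, KO CM replicate 2 or KO CM replicate 3, neither was called, and Cdk4 was not called without regular replicate 1 either (0.135). Ccnd3 and Cdk4 then had adjusted p-values of 0.0666 to 0.144 and of 0.0766 to 0.14.

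**Figure D4:**
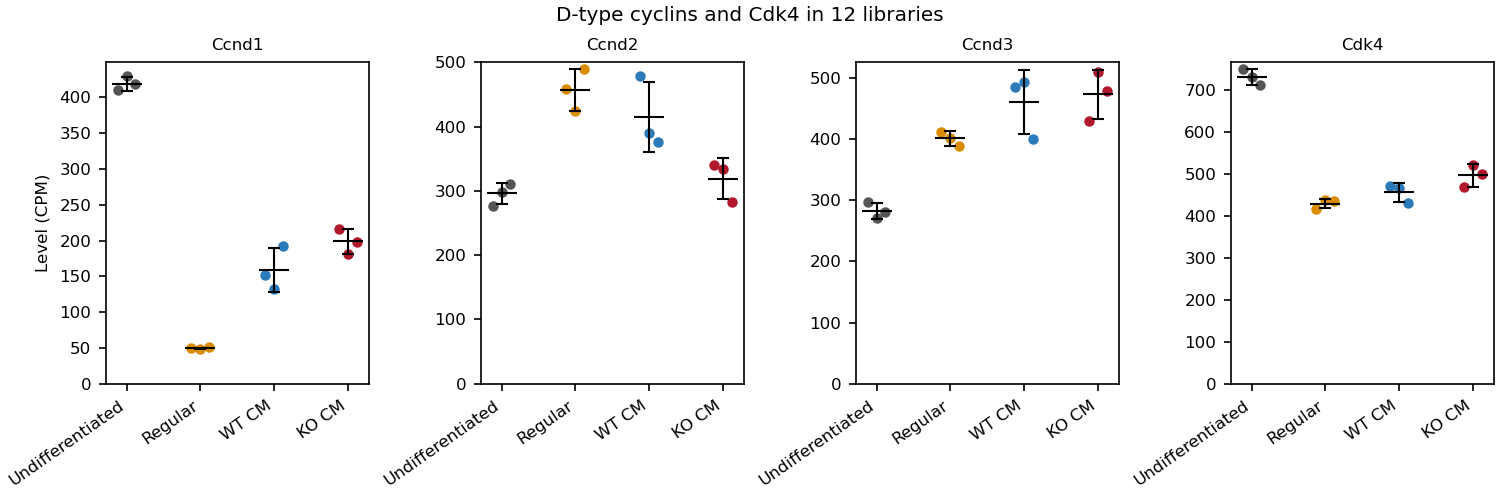
Level (CPM, linear axes from 0) of the 3 D-type cyclin genes and Cdk4 in each of the 12 libraries; points are libraries and lines are the mean ± SD of 3. Ccnd1 is lowest in regular cells at 49.1 to 50.7 CPM, where Ccnd2 is at 424 to 489 CPM.

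Other genes of the same processes were counted from lists to set the members in context. Of 48 further tested mitotic genes, 43 (89.6%) fell on differentiation, against 28.0% of all tested genes, with a median of -1.33, led by Nuf2 (-2.38), Ckap2 (-2.36) and Troap (-2.10). Against regular cells, 6 (12.5%) fell with WT CM, a share below the 15.4% of all tested genes, and 17 (35.4%) with KO CM, against 21.0%. Between the media 5 (10.4%, against 6.62% of all tested genes) were lower with KO CM: the separase gene Espl1 (-1.64), the passenger complex gene Incenp (-1.44), Gtse1 (-1.85), the contractile ring gene Anln (-0.84) and Cks1b (-0.48). Incenp is the scaffold that holds Aurkb. Of 21 DNA replication genes, 17 (81.0%) fell on differentiation, 6 (28.6%) with WT CM and 9 (42.9%) with KO CM. Of these genes 2 (9.52%), Tk1 (-0.87) and Cdt1 (-0.80), were lower with KO CM than with WT CM. The calls of further mitotic and replication genes between the media were not followed through the alternative settings. Promoters of 50 further mitotic genes held CCAAT in 33 (66.0%) and TTTGAA in 28 (56.0%).

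The APC/C and cohesin also work in non-dividing cells. Their genes, only 11 and 8 of them tested, were called lower on differentiation at shares nearer to that of all tested genes (28.0% lower and 29.6% higher). A link between the 2 was not tested. Of 11 genes of the APC/C and its partners, 4 (36.4%) fell and 2 (18.2%) rose. Among them were the subunit genes Anapc16 (-0.96) and Anapc13 (0.75) and Fzr1 (0.67), the activator that works after Cdc20. Fzr1 was lower with KO CM than in regular cells (-0.69), and an exon of Mfsd12 lies on the other strand near its 3′ end. Of 8 cohesin genes, 2 (25.0%) fell on differentiation, Stag1 (-0.66) and Rad21 (-0.23), and 0 rose, although all 8 log2 changes were below 0, with a median of -0.24. Within 1000 bases of the 3′ end, where these tags lie, 9 members share sequence with an exon of a gene on the other strand: Ccna2, Kif20a, Prc1, Cdc20, Ube2c and all 4 G1 genes. The sources used here do not say whether counting used strand, so it is not known whether reads of these pairs were told apart. Pseudogenes named after Ccnb1, Ccnb2, Kif22 and Ccnd3 could also have taken some of their reads.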

How the data were processed

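RNA of 12 libraries (3 per group) was read by MARS-seq. Per the submitters' processing notes, the authors used cutadapt, HTSeq and DESeq2 with the mm10 build, and versions, aligner and annotation are not given in the sources used here. Raw UMI counts of each gene were analysed as the authors deposited them. Calls at 0.05 were also counted from the log2 fold changes and adjusted p-values that the authors deposited. A further 24 normalized per-library columns were not used.

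Counts were fitted with edgeR 4.0.16 (R 4.3.3, limma 3.58.1): TMM scaling, filterByExpr over the 4 groups (9378 of 11022 genes kept), robust quasi-likelihood tests with 1 coefficient per group and Benjamini-Hochberg adjustment over all tested genes, called at 0.05. The common biological coefficient of variation was 9.38%. SE is the absolute log2 change over the square root of F. The fit was tested on simulated data. A count of 3 UMIs over a group correspond to 0.562 to 0.943 CPM, a limit of counting error alone. Library totals ran from 987496 to 2589045.

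Members and gene lists were chosen with earlier results of these data known. Values in every library are given for Mki67, the 3 most abundant members outside G1, the G1 genes, the 3 largest called changes per comparison, members called against the majority, and every call between the media. Of other lists, the 3 largest called changes per comparison may be named, and all where 5 or fewer were called. Other members were described by role. Alternatives were RLE and total-count scaling, no filter, DESeq2 1.42.0, fits of the groups compared alone, a replicate block, thinning to the smallest total and each library left out. Coordinates are from GENCODE M21 (GRCm38), and promoter windows are from RefSeq.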

Additional observations from a re-analysis of the deposited data

How the results depend on the processing

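No member called in a comparison changed sign in any alternative. Of the called members, 31 of 35 on differentiation, 6 of 12 with WT CM, 17 of 23 with KO CM, 0 of 8 between the media, 33 of 34 for WT CM and 33 of 34 for KO CM against undifferentiated cells were called in every alternative that gave them a value. DESeq2 called 6 members lower with WT CM than in regular cells, in place of 11. Members higher with KO CM than in regular cells numbered 1 with RLE scaling, 1 with total counts and 1 with DESeq2, in place of 3. Between the media, lower members numbered 3 in the fit of those groups alone, 2 after thinning, 3 with DESeq2 and 9 with total counts, in place of 6, and higher ones 0 with total counts, 1 without the filter, 0 in the fit of those groups alone, 1 after thinning and 0 with DESeq2, in place of 2. The cause was not tested, except that thinning leaves fewer UMIs. With 100 bases before the start in place of 250, TTTAAA was found in 5 promoters in place of 8, a shorter window, while CCAAT was found in 24, TTTGAA in 22 and both in 19.

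With each library left out in turn, lower and higher members numbered 32 to 34 and 2 to 2 on differentiation, 7 to 12 and 1 to 2 with WT CM, 18 to 22 and 1 to 3 with KO CM, 1 to 7 and 0 to 2 between the media, and 31 to 34 and 2 to 2 (WT CM) and 33 to 35 and 1 to 1 (KO CM) against undifferentiated cells. The lowest counts were 7 without WT CM replicate 2 and 1 without KO CM replicate 3. A single rise with KO CM against regular cells was left without regular replicate 2 or 3 or KO CM replicate 2 or 3.

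Same-numbered libraries of different groups did not deviate together (correlations of -0.0657 to 0.0553), which gave no sign that the numbers pair the libraries. Pairing effects smaller than the counting noise of single genes could not be seen this way. A replicate block gave 33 lower and 2 higher on differentiation, 10 and 1 with WT CM, 20 and 3 with KO CM, 6 and 2 between the media, and 32 and 2 and 33 and 1 for the media against undifferentiated cells.

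Total-count scaling moved the median log2 change of all genes by over 0.1, to -0.17 on differentiation, -0.12 from regular to KO CM, and -0.14 (WT CM) and -0.2 (KO CM) from undifferentiated cells. The share of higher calls among all genes went from 51.3% to 40.3% on differentiation, from 51.3% to 40.7% for KO CM against regular cells, from 47.0% to 30.3% between the media, and from 57.4% to 38.8% and from 59.5% to 33.1% for the media against undifferentiated cells. It called 3004 genes lower for WT CM against undifferentiated cells in place of 1942, and 3039 lower and 1502 higher for KO CM in place of 1659 and 2442. Between the media, 621 genes were lower and 550 higher, but 356 were higher with total counts, 406 lower and 347 higher after thinning, 413 lower with DESeq2 and 379 lower without KO CM replicate 3. Depth limits the KO CM group most, where several members rest on fewer than 20 UMIs in all.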

Other observations

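Of 7 tested CDK inhibitor genes, 5 (71.4%) fell and 1 (14.3%) rose on differentiation, where 28.0% of all tested genes fell and 29.6% rose. Of 15 RB, E2F and DREAM regulators, 4 (26.7%) fell and 2 (13.3%) rose. The CDK inhibitor gene that rose was Cdkn2c. It codes for the Cdk4 inhibitor p18 and was at 19.5 ± 3.64 CPM (SD, n = 3) in undifferentiated cells and rose to 95.6 ± 6.84 in regular cells (2.28, adjusted p = 1.5e-16 by edgeR). With WT CM it was at 61 ± 3.34 and with KO CM at 29.7 ± 5.18, lower than in regular cells by 0.65 and 1.69 on the log2 scale. Cdkn2a and Cdkn2b, neighbouring genes of other Cdk4 inhibitors and of Arf, fell on differentiation (-0.67 and -1.09). Cdkn2a stood at 245 ± 22.2 CPM in undifferentiated, 156 ± 29.1 in regular, 181 ± 8.65 in WT CM and 286 ± 21.9 in KO CM libraries, and was higher with KO CM than with WT CM by 0.66 (adjusted p = 7.75e-06 by edgeR). Cdkn2b was higher there by 0.58 (adjusted p = 0.000116).

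Rb1, the retinoblastoma gene that restrains S phase entry, followed the course of Cdkn2c, at 11.1 ± 2.44, 39.8 ± 4.41, 27.2 ± 2.66 and 13.1 ± 1.87 CPM (SD, n = 3) in the same order of groups. It rose on differentiation (1.84, adjusted p = 3.97e-10 by edgeR) and was lower with KO CM than with WT CM (-1.03, adjusted p = 0.00288). An exon of Rcbtb2 lies on the other strand near its 3′ end. Foxm1, a transcription factor of mitotic genes, fell from 44.4 ± 5.1 to 12.7 ± 3.39 CPM on differentiation (-1.82, adjusted p = 6.31e-10 by edgeR). Exons of Tex52 and Gm44596 lie on the same strand near the 3′ end of Foxm1. Lin9, a subunit of the MuvB complex, was lower with KO CM than with WT CM (-1.74, adjusted p = 0.00799 by edgeR), at 3.03 ± 2.1 against 9.78 ± 0.837 CPM. Its KO CM level rests on few counts, since 3 UMIs in 1 KO CM library correspond to 2.35 to 3.34 CPM. The calls of CDK inhibitor genes, Rb1 and Lin9 between the media were not followed through the alternative settings. Of the 8 member calls in that comparison, 0 held in all of them.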
